A study of Mus musculus with 16 samples.

Results

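Pax6, Emx1, Emx2, Lhx2, Nr2f1, Nr2f2, Sp8 and Dmrta2 are transcription factor genes that set regional and areal identity in the developing forebrain. The 8 were listed by name, and all 8 are rows of the count matrix, among 14498 genes. The matrix comes from single-cell RNA sequencing of forebrain from wild-type CD1 mice, an outbred strain, at embryonic day 15.5, prepared with the SureCell droplet workflow. Its 16 samples carry identical labels and were deposited as 1 matrix whose cell names do not say which sample a cell came from, so all cells were treated as 1 sample. Values below are therefore descriptions of this pool: every interval covers counting error only, for 95% of repeats, and no p-value was computed.

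The cortical sheet is divided into areas by transcription factors that radial glia, the stem cells of the ventricular zone, express in gradients. Pax6 is high at the rostral and lateral side, Emx2 and Dmrta2 at the caudal and medial side, Sp8 at the rostral and medial side, and Nr2f1 at the caudal and lateral side, and losing one of them in mice shifts area borders. Lhx2 and Emx1 mark the dorsal telencephalon as a whole, while Nr2f2 is best known from the caudal ganglionic eminence and Sp8 from the lateral and caudal eminences, where many interneurons arise.

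The 5777 cells held between 1111 and 17398 unique molecular identifiers (UMIs, each 1 counted RNA molecule), with a median of 3258. After 4 red blood cell-like cells were set apart, clustering without any of the 8 genes gave 26 clusters, of which 22 were named from marker genes and 4, with 934 cells, were not. Names ending in "-like" mean resemblance to those markers. The radial glia-like class held 602 cells, 10.4% of those kept, with a median of 2986 UMIs; its 16 radial glia markers summed to 16647 CPM (counts scaled to the total UMIs of a class), against 5273 CPM in ganglionic eminence progenitor-like cells. One unnamed cluster of 271 cells, led by the mitosis genes Ccnb1 and Ube2c, raised all 16 of these markers, and another of 275 cells was led by the proliferation genes Bub1b and Rrm2. The cells formed 2 runs in the matrix, 3651 and 2122 cells long, seen in the place of Y-linked UMIs. The runs may be separate preparations, which the labels do not say, and values by run (1 and 2) are given for some results.

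Coordinates are in mm10 with GENCODE annotation. Emx1 lies at chr6:85187438-85204462, Lhx2 at chr2:38339281-38369733, Sp8 at chr12:118846329-118852576 and Dmrta2 at chr4:109978053-109983687, on the plus strand, and Nr2f2 at chr7:70351944-70366735 on the minus strand. The 3 antisense partners in the matrix overlap their sense genes on the opposite strand. Pax6os1 shares 1431 bases with Pax6 (chr2:105668900-105697364, plus strand), Emx2os shares 264 bases with Emx2 (chr19:59458372-59465357, plus strand), and A830082K12Rik shares 1741 bases with Nr2f1 (chr13:78188973-78199757, minus strand). The whole matrix held 30 UMIs of Pax6os1 against 2995 of Pax6, 202 of Emx2os against 1842 of Emx2, and 1075 of A830082K12Rik against 16302 of Nr2f1. Whether counting used strand is not given in the sources used here, so reads in the shared bases could belong to either gene. Nr2f1 and Nr2f2 are close paralogs, and how reads fitting both were counted is also not given, so their split is uncertain to that extent.

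Promoters are shown for the pairs described below as moving together (Lhx2 and Dmrta2) and apart (Nr2f2 and Sp8) in radial glia-like cells. Each is the 250 bases before the RefSeq start in GRCm38.p6, read along the gene's strand, and lies upstream of the gene in GENCODE. Capitals mark GGGCGG or its reverse complement, the GC box read by Sp-family factors such as Sp8.
Lhx2, chr2:38339031-38339280, plus strand: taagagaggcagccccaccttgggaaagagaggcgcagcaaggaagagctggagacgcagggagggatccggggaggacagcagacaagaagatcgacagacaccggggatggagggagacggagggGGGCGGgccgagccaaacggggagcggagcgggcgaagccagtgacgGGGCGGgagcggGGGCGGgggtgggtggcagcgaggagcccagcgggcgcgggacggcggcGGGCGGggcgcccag
Dmrta2, chr4:109977775-109978024, plus strand: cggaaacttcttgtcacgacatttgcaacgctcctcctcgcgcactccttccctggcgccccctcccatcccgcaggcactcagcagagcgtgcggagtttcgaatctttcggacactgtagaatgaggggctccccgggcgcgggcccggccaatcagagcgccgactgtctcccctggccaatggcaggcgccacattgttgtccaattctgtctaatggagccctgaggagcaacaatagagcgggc
Nr2f2, chr7:70366747-70366996, minus strand: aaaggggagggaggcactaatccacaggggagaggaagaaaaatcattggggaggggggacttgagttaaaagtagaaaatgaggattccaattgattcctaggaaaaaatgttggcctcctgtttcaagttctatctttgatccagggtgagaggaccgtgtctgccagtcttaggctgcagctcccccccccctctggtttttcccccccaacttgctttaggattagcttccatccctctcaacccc
Sp8, chr12:118846079-118846328, plus strand: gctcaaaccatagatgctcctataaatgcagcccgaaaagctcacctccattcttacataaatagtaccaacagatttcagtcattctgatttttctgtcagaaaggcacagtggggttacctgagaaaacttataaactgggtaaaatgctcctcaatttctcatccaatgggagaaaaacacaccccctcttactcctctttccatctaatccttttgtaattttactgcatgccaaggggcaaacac
Lhx2 held 4 matches to GGGCGG and the other 3 held none, while 32.7% of 32851 promoter windows of this length held at least 1. None of the 4 windows held AGGTCA, the half-site of nuclear receptors such as Nr2f1 and Nr2f2 (14.02% of windows), or TAATTA, a core read by homeodomain factors such as Lhx2 and Emx2 (4.84% of windows). Both strands were searched. RefSeq has further starts inside the gene for Lhx2 and Sp8, not printed here. The 250 bases before the inner Lhx2 start (chr2:38351058-38351307) held 0 matches to any of the 3 motifs. Those before the inner Sp8 starts held 1 match to the nuclear receptor half-site and 1 to the GC box (chr12:118846983-118847232) and 1 to TAATTA (chr12:118847309-118847558). A match describes these letters only and is not a measured binding site.

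Pax6, Emx1, Emx2, Lhx2 and Dmrta2 were highest in dividing cortical cells or their immediate progeny, apart from Emx2 and Dmrta2, whose highest level lay in Cajal-Retzius cell-like cells. Pax6, which keeps radial glia in the neurogenic state, stood at 12.5 CPM (7.29 to 20.04) in upper layer neuron-like cells, 306 CPM (274 to 340.4) in intermediate progenitor-like cells, 414 CPM (387 to 443) in radial glia-like cells and 499 CPM (461 to 540.5) in the Ccnb1 and Ube2c cluster. These last 3 were its highest levels among 18 classes and clusters, and their intervals did not overlap. In the radial glia-like class Pax6 was at 393 CPM in run 1 and 439.8 CPM in run 2.

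Emx1, a marker of the cortical excitatory lineage, was highest in intermediate progenitor-like cells at 347 CPM (313 to 383), ahead of migrating excitatory neuron-like cells at 204 CPM (189 to 220.5), the Bub1b and Rrm2 cluster at 173 CPM (153 to 194) and radial glia-like cells at 136 CPM (120.4 to 153). Only the first of these stood apart from its neighbour: the later intervals overlapped pair by pair. Emx1 was low in classes of ventral origin, with 15.9 CPM in ganglionic eminence progenitor-like cells and 13.6 CPM in Lhx6 interneuron-like cells.

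Lhx2, a LIM-homeodomain selector of cortical fate, reached 1162 CPM (1125 to 1201) in migrating excitatory neuron-like cells and 1143 CPM (1081 to 1208) in intermediate progenitor-like cells, whose intervals overlapped, and 826 CPM (786 to 866) in radial glia-like cells. Its lowest levels outside the microglia-like class were 50.9 CPM in meningeal fibroblast-like and 57.99 CPM in Adarb2 interneuron-like cells. Emx2, the homeodomain relative of Emx1, was at 624 CPM (540.5 to 716) in the 73 Cajal-Retzius cell-like cells, early-born neurons of the cortical surface. That lay above every other class, and the 147 CPM of intermediate progenitor-like cells followed the 203 CPM of radial glia-like cells and the 199.9 CPM of the Ccnb1 and Ube2c cluster, whose intervals overlapped. Dmrta2, a doublesex-related factor of the medial cortex, had 310.3 CPM (252 to 377) in Cajal-Retzius cell-like cells, 244 CPM (215 to 274) in intermediate progenitor-like cells and 139 CPM (123 to 156) in radial glia-like cells. The first of these intervals overlapped with the second, and the second lay apart from the third.

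The highest levels of Nr2f1, Nr2f2 and Sp8 lay outside dividing cortical cells and migrating excitatory neuron-like cells. Nr2f1, an orphan nuclear receptor, was at its highest in the Fam19a2 and Nts cluster (1274 CPM, 1204 to 1346), Adarb2 interneuron-like cells (1148 CPM, 1058 to 1244), the Ccnb1 and Ube2c cluster (1119.5 CPM, 1061 to 1180.1) and radial glia-like cells (1118 CPM, 1072 to 1165), with each interval overlapping the next. It was lowest, outside microglia-like cells, in basal forebrain neuron-like cells at 218 CPM (178 to 264). Nr2f2, its paralog, stood at 1294 CPM (1173 to 1424) in Cajal-Retzius cell-like cells, 907 CPM (848 to 969) in the Fam19a2 and Nts cluster and 659 CPM (591 to 733) in Adarb2 interneuron-like cells, 3 levels set apart from each other and from the rest. Radial glia-like cells had 117 CPM (103 to 133), with 151 CPM in run 1 and 77.3 CPM in run 2.

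Sp8, a zinc-finger factor, had 359.6 CPM (309.7 to 415) in Adarb2 interneuron-like cells, 146 CPM (126 to 168) in ganglionic eminence progenitor-like cells, 62.3 CPM (42.1 to 89.00) in basal forebrain neuron-like cells and 50.9 CPM (41.5 to 61.7) in radial glia-like cells. The first 2 stood apart from all other classes, and the last 2 overlapped. Along the cortical classes Sp8 fell from radial glia-like cells to 17.2 CPM in intermediate progenitor-like and 12.9 CPM in migrating excitatory neuron-like cells. It was at 5.56 CPM in deep layer and 1.47 CPM, from 2 UMIs, in upper layer neuron-like cells. The intervals of the 2 layer classes overlapped, as did those of the 2 classes before them. The 17 microglia-like cells, whose lineage arises outside the forebrain, held 0 UMIs of Emx1, Emx2 and Sp8, below a floor of 44.5 CPM set by 3 counts in this small class, 1 UMI each of Pax6, Lhx2, Nr2f1 and Dmrta2, and 5 of Nr2f2.

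**Figure D1:**
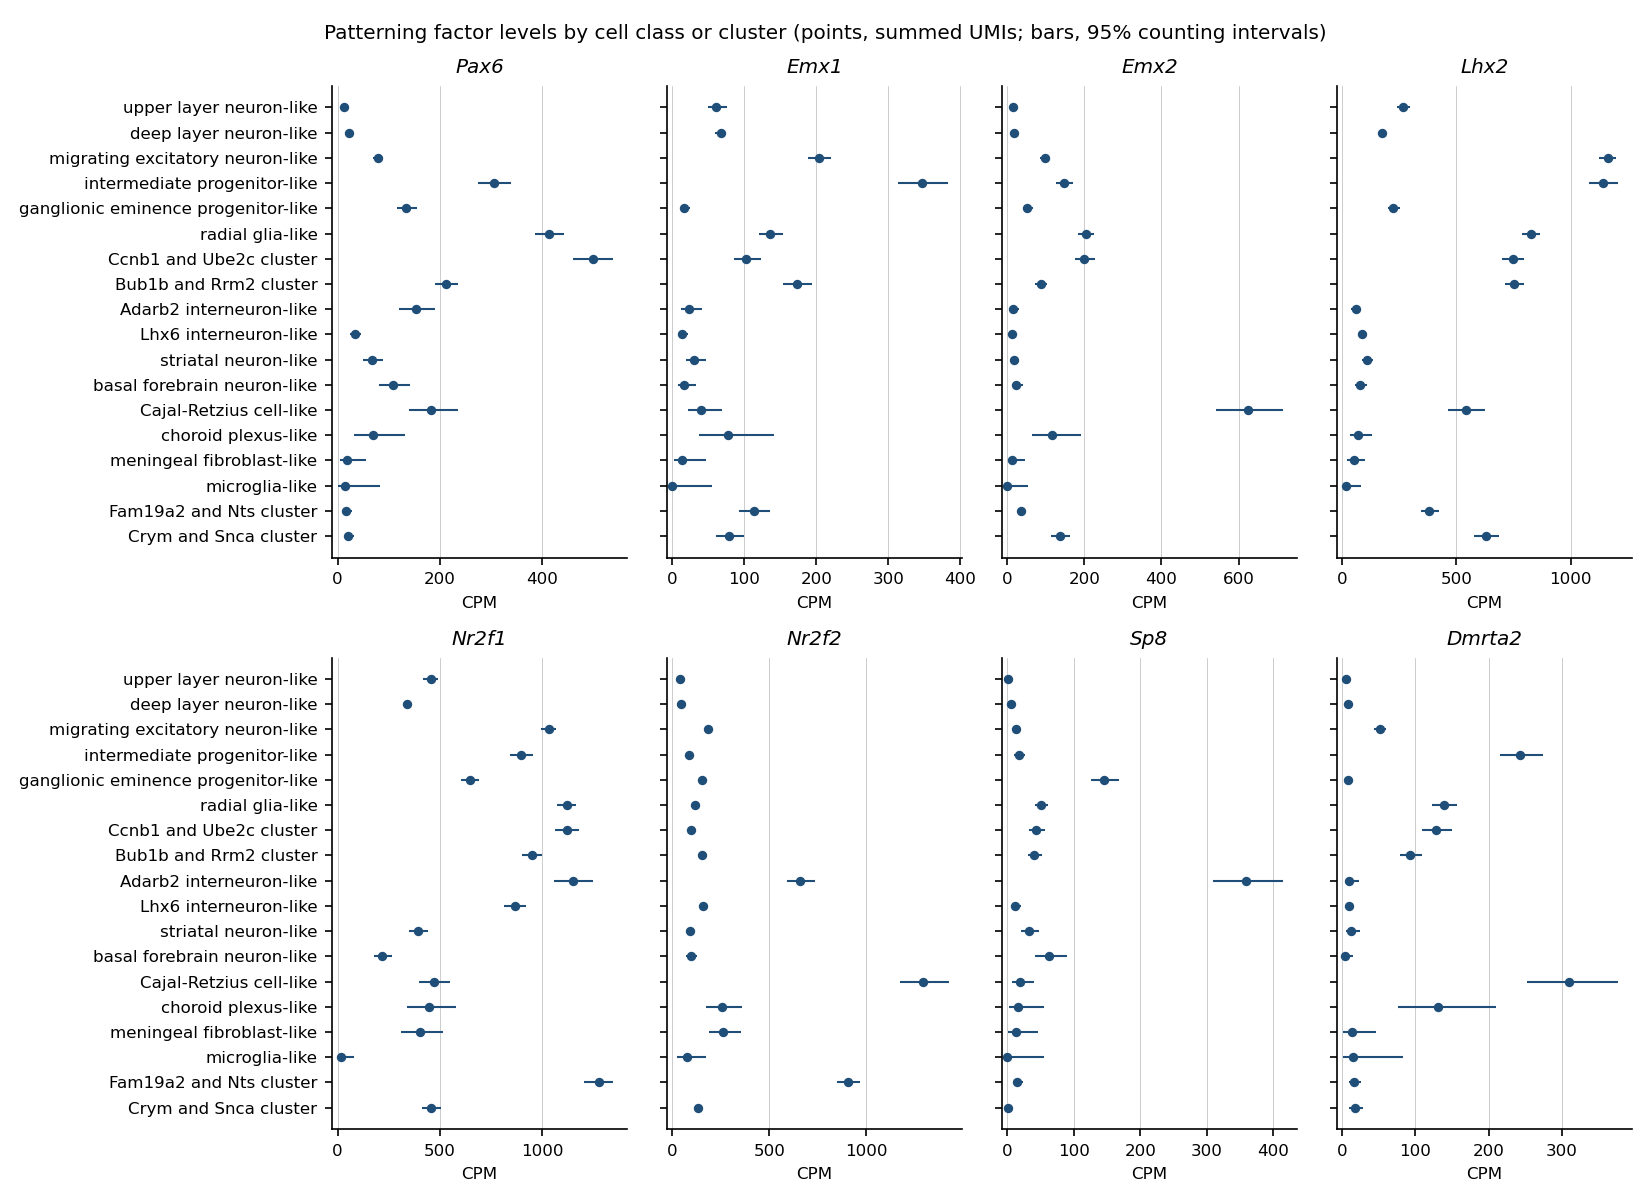
Level of each of the 8 genes (CPM, x axis; scales differ by gene) in 18 cell classes and unnamed clusters. Points are levels from summed UMIs and bars are 95% counting intervals; Pax6 peaks at 499 CPM in the Ccnb1 and Ube2c cluster, Emx1 at 347 CPM in intermediate progenitor-like cells, Emx2, Nr2f2 and Dmrta2 in Cajal-Retzius cell-like cells, and Sp8 at 359.6 CPM in Adarb2 interneuron-like cells.

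Detection within the radial glia-like class was compared after each cell was thinned to 1000 UMIs. Nr2f1 was then seen in 51.3% (47.3 to 55.4) of the 602 cells, Lhx2 in 49.2% (45.1 to 53.2) and Pax6 in 32.2% (28.5 to 36.1). Emx2 was seen in 16.3%, Dmrta2 in 13.8%, Emx1 in 13.5%, Nr2f2 in 7.81% and Sp8 in 5.48% of them. Without thinning the shares were 74.9% for Nr2f1, 78.6% for Lhx2, 58.97% for Pax6 and 12.6% for Sp8. Free RNA can place a UMI in a cell that does not express the gene. Lhx6 interneuron-like cells had a median of 2296 UMIs before thinning. Their thinned shares were 1.19% for Emx1, 0.992% for Emx2, 0.595% for Dmrta2, 0.595% for Sp8, 2.78% for Pax6 and 5.75% for Lhx2. All lay below those of radial glia-like cells. Ganglionic eminence progenitor-like cells, also ventral, held Lhx2 at 224 CPM, Sp8 at 146 CPM and Pax6 at 135 CPM. The part of free RNA in the Lhx6 interneuron-like shares was therefore not measured. Of microglia-like cells 0 of 17 held a thinned UMI of Nr2f1 or Nr2f2, where 3 counts would make a share of 17.6% and the exact Clopper-Pearson interval reaches 19.5%.

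The radial glia-like class, with 9.29% of all UMIs, held 27.7% of the Pax6, 22.3% of the Dmrta2 and 22.1% of the Emx2 UMIs in the matrix, and 6.07% of the Nr2f2 UMIs. The Fam19a2 and Nts cluster, with 4.52% of all UMIs, held 22.9% of those of Nr2f2, and the Adarb2 interneuron-like class, with 2.395% of all UMIs, held 23.9% of those of Sp8. These shares follow class size as well as level.

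Between intermediate progenitor-like and radial glia-like cells, Emx1 and Dmrta2 were higher in the progenitors and Sp8 was lower, by at least 1.5-fold in each case. Here 14.1% of the 8539 genes that reached 50 UMIs across the pair were higher by that limit and 21.4% were lower, beside 2 and 1 of the 8. Emx1 was 2.55-fold (2.18 to 2.99) higher, at 347 CPM in intermediate progenitor-like cells against 136 CPM in radial glia-like cells, and it was higher by 2.34-fold in run 1 and 2.96-fold in run 2. Dmrta2 was 1.75-fold (1.48 to 2.08) higher, but by 1.35-fold in run 2 alone and 1.43-fold without the 289 cells of highest doublet score, both under the limit. With the 8 genes and the patterning lists allowed as clustering features the ratio was 0.919. Sp8 was 2.96-fold (1.8 to 5.11) lower, from 19 UMIs in intermediate progenitor-like cells and 102 in radial glia-like cells, and 1.54-fold lower when every cluster took its best-scoring class. Pax6 at 0.739 (0.649 to 0.839), Emx2 at 0.721 (0.597 to 0.867), Nr2f1 at 0.80 (0.742 to 0.863), Nr2f2 at 0.742 (0.579 to 0.944) and Lhx2 at 1.38 (1.29 to 1.49) stayed within the limit, given as ratios of intermediate progenitor-like over radial glia-like cells. Emx2 differed by run, at 0.439 and 1.04.

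All 8 genes were lower by at least 1.5-fold in upper and deep layer neuron-like cells, joined as excitatory neuron-like cells, than in radial glia-like cells. By that limit 30.5% of 10197 measured genes were lower and 23.8% higher. Pax6 was at 19.4 CPM in the neurons and 414 CPM in radial glia-like cells, 21.4-fold (17.5 to 26.3) lower. Dmrta2 was 18.4-fold (13.3 to 25.9) lower, Emx2 11.7-fold (9.34 to 14.7) lower and Sp8 11.1-fold (7.16 to 17.8) lower. Lhx2 was 4.21-fold (3.9 to 4.55) lower, Nr2f1 3.05-fold (2.88 to 3.24) lower and Emx1 2.08-fold (1.77 to 2.44) lower, with 366 CPM of Nr2f1 still present in the neurons. Nr2f2 was 2.83-fold (2.35 to 3.4) lower, but this turned round once every cluster took its best-scoring class: the Fam19a2 and Nts cluster, with 907 CPM of Nr2f2, then counted as excitatory neurons and Nr2f2 was 1.55-fold higher in them. Sp8 was 6.78-fold lower in run 1 and 25.7-fold lower in run 2, from 20 and 6 UMIs in the neurons. Dmrta2 was 35.2-fold lower with clusters drawn on a random 50% of the UMIs. At a clustering resolution of 0.5 Emx2 was 6.5-fold lower and Emx1 1.44-fold lower, under the limit.

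Ganglionic eminence progenitor-like cells, progenitors of the ventral forebrain, had less of 6 of the 8 genes than radial glia-like cells and more Sp8. Here 11.4% of 8631 genes were higher and 18.2% lower by 1.5-fold, against 1 and 6 of the 8. Sp8 was 2.86-fold (2.24 to 3.68) higher, at 145.6 CPM in ganglionic eminence progenitor-like cells and 50.9 CPM in radial glia-like cells. Dmrta2 was 16.7-fold (9.18 to 33.8) lower from 11 UMIs against 279, Emx1 8.55-fold (5.48 to 14.03) lower, Emx2 3.94-fold (3.04 to 5.18) lower, Lhx2 3.69-fold (3.26 to 4.19) lower and Pax6 3.07-fold (2.61 to 3.63) lower. Nr2f1 was 1.73-fold (1.6 to 1.87) lower, and 1.48-fold lower, under the limit, with 15 principal components. Nr2f2 had a ratio of 1.32 (1.09 to 1.6), within the limit. Of the 397 ganglionic eminence progenitor-like cells 378 lay in run 1 and 18 in run 2, so the comparison rests on run 1, where Sp8 was 3.01-fold higher and the Nr2f2 ratio was 1.0. In the 18 cells of run 2 Pax6 was 5.3-fold, Lhx2 5.996-fold and Dmrta2 8.98-fold lower, from only 5, 9 and 1 UMIs in them. The 9 ganglionic eminence markers, which named the class, summed to 3628 CPM in it and 187 CPM in radial glia-like cells. The 16 radial glia markers summed to 5273 CPM in it and 16647 CPM in radial glia-like cells. Leading genes of its clusters included the proliferation gene Rrm2 and the mitosis gene Ube2c, while the Ccnb1 and Ube2c cluster was not part of the radial glia-like class. Region, progenitor stage and cell cycle therefore cannot be told apart in these ratios.

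Among interneurons, Sp8, Pax6 and Nr2f2 were higher in Adarb2 interneuron-like than in Lhx6 interneuron-like cells. That made 3 of the 5 genes with enough UMIs, where 8.05% of 6351 genes were higher and 9.84% lower. Adarb2 and Lhx6 are known as marks of interneurons born in the caudal and the medial ganglionic eminence. The Adarb2 interneuron-like class was led by Sp8, known from the lateral eminence too. Pbx3 was 10.9-fold (8.44 to 14.2) and Meis2 9.5-fold (7.98 to 11.4) higher in it. The eminence these cells came from was not tested. Sp8 was 30.01-fold (17.7 to 54.7) higher, from 186 UMIs in 217 Adarb2 interneuron-like cells and 15 in 504 Lhx6 interneuron-like cells. It was 18.1-fold higher in run 1, while run 2 held 38 UMIs in the Adarb2 and 1 in the Lhx6 class, and 50.7-fold higher without the cells of highest doublet score. Pax6 was 4.55-fold (3.09 to 6.78) higher and Nr2f2 4.13-fold (3.45 to 4.94) higher. Nr2f2 was 2.97-fold higher in run 1 and 9.57-fold in run 2. Nr2f1 at 1.33 (1.2 to 1.47) and Lhx2 at 0.672 (0.433 to 1.02) lay within the limit, though Lhx2 ran from 0.435 to 1.73 over the alternatives, below 1 in 10 of 13. Emx1, Emx2 and Dmrta2 had at most 12 UMIs in the Adarb2 and 17 in the Lhx6 class, too few. With clusters drawn on a random 50% of the UMIs and levels taken from the remainder, the ratios were 2.82 for Sp8, 1.86 for Pax6 and 1.33 for Nr2f2.

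Between upper layer and deep layer neuron-like cells, 2 of the 6 genes with enough UMIs passed 1.5-fold. Lhx2 was higher, at 267 CPM in upper layer and 174 CPM in deep layer neuron-like cells (1.54-fold, 1.35 to 1.75), and Pax6 was lower (1.72-fold, 1.02 to 3.08, from 17 UMIs against 93). By the same limit 4.5% of 9148 genes were higher and 13.8% lower. Nr2f1 at 1.34 (1.22 to 1.48), Emx1 at 0.916 (0.708 to 1.17), Emx2 at 0.804 (0.466 to 1.33) and Nr2f2 at 0.971 (0.704 to 1.32) stayed within it. The upper layer class held 15 run 1 and 286 run 2 cells, and within run 2 alone the Lhx2 ratio was 2.24 and the Nr2f1 ratio 1.56. The Pax6 ratio within run 2 was 0.728 (0.367 to 1.4), from 16 UMIs against 27, inside the limit and with an interval that held 1. Emx1 and Nr2f2 lay on the same side of 1 in only 8 of 13 alternatives each: the Emx1 ratio ran from 0.854 to 1.83, with 1.83 in run 1 and 1.34 in run 2, and the Nr2f2 ratio from 0.367 to 2.65, with 0.367 in run 1. Neither call held under every alternative: Lhx2 ranged between 1.08 and 3.41, and the Pax6 ratio between 0.381 and 0.794.

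**Figure D2:**
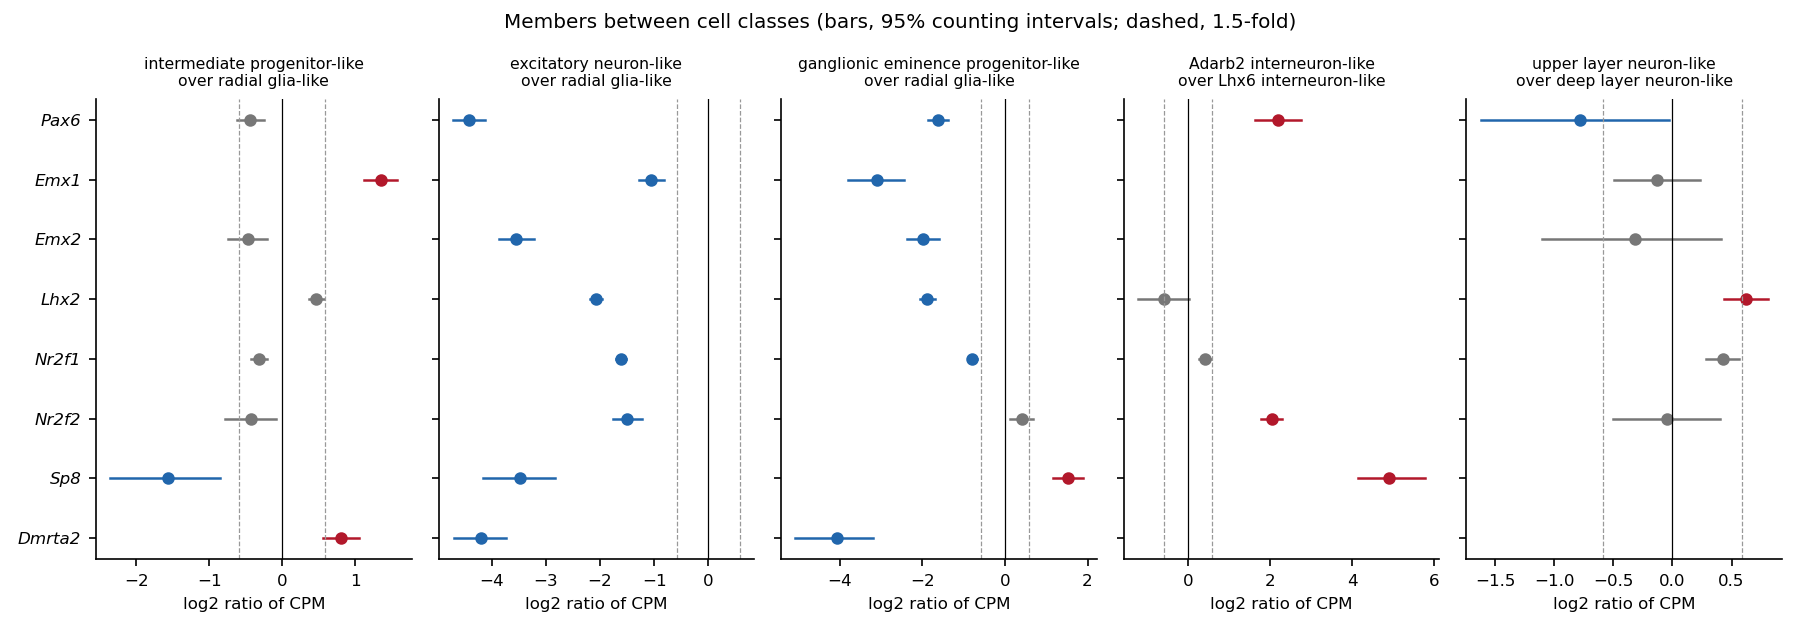
Log2 ratio of CPM of the 8 genes in 5 pairs of cell classes, first class over second. Bars are 95% counting intervals, dashed lines mark 1.5-fold, red and blue points lie above and below it, and genes under 50 UMIs are left out; all 8 lie to the left in excitatory neurons, and Sp8 lies to the right in ganglionic eminence progenitor-like and Adarb2 interneuron-like cells.

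Opposed gradients would leave a Pax6-rich radial glial cell poor in Nr2f1 and the reverse. To look for this, the 602 radial glia-like cells were split by whether a gene had a UMI among 1000 drawn UMIs, and every other member was compared between the cells with and without it. For Pax6 and Nr2f1 no such opposition was seen at this depth. Among 1000 drawn UMIs 194 cells had a Pax6 UMI, and 355 had one when all UMIs were used. Cells counted as without a gene thus include cells that hold it, and the split could miss a weak or graded opposition. Pax6 was at 404 CPM in the 309 cells with Nr2f1 and 426 CPM in the 293 without, a ratio of 0.95 (0.827 to 1.09). In the other order, Nr2f1 was at 1129 CPM in cells with Pax6 and 1112 CPM in cells without, a ratio of 1.02 (0.93 to 1.11). Over 5 random draws the Pax6 ratio ran from 0.931 to 1.12 and lay on both sides of 1. It was 1.04 (0.88 to 1.24) with cells split on 2000 drawn UMIs and 1.04 (0.875 to 1.25) on all UMIs.

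The Pax6 level did not move steadily with Nr2f1: it was 426 (385 to 469) CPM in cells with 0 Nr2f1 UMIs, 417 (364 to 476) with 1, 339 (275 to 414) with 2 and 451 (372 to 543) with 3 or more. In the Ccnb1 and Ube2c cluster the pair went together instead, with a Pax6 ratio of 1.2 (1.02 to 1.41) by Nr2f1 and an Nr2f1 ratio of 1.37 (1.23 to 1.53) by Pax6. Pax6 was lower beside Nr2f2. Its level was 199.9 CPM in the 47 cells with Nr2f2 and 434 CPM in the 555 without, a ratio of 0.461 (0.315 to 0.653) that ran from 0.461 to 0.911 over the draws. Its interval left out 1 in 4 of the 5. Run 1 gave 0.36 (0.211 to 0.576) and run 2 0.721 (0.40 to 1.2). In the other order, Nr2f2 by Pax6 had a ratio of 0.81 (0.603 to 1.08), whose interval held 1. In the Ccnb1 and Ube2c cluster the orders lay on opposite sides of 1, with 0.806 (0.574 to 1.1) for Pax6 by Nr2f2 and 1.54 (1.05 to 2.26) for Nr2f2 by Pax6.

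**Figure D3:**
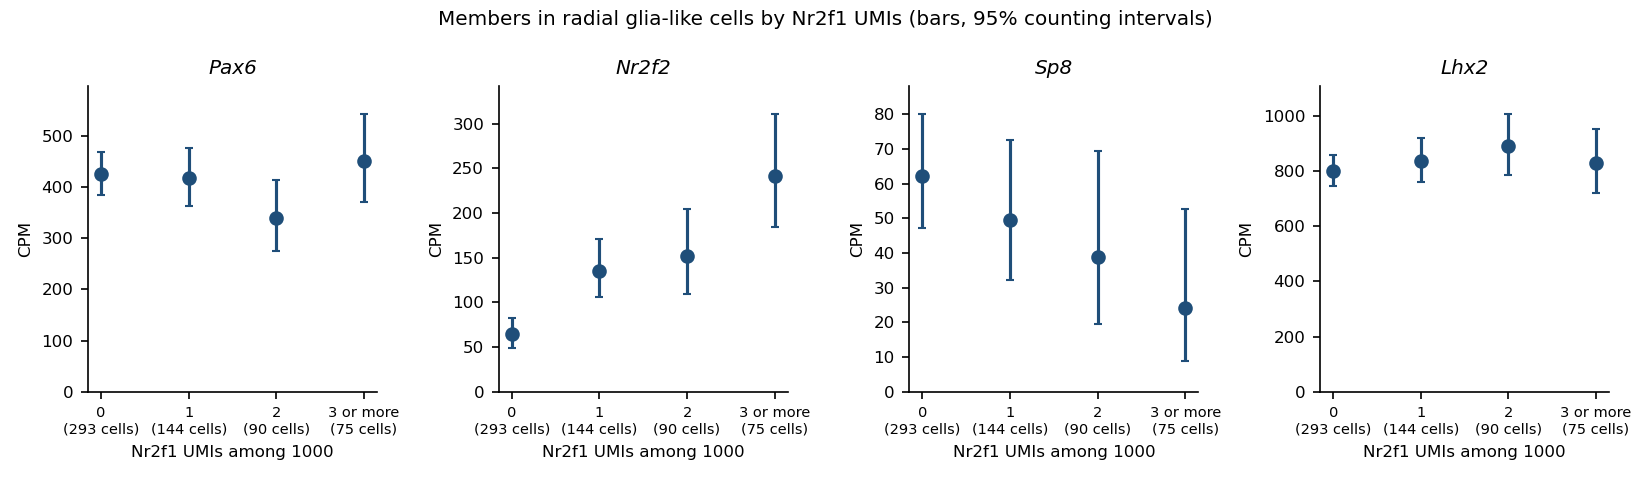
CPM of Pax6, Nr2f2, Sp8 and Lhx2 in radial glia-like cells grouped by the number of Nr2f1 UMIs among 1000 drawn per cell. Bars are 95% counting intervals; Nr2f2 stands at 242 CPM with 3 or more Nr2f1 UMIs and 64.3 CPM with 0, Sp8 at 24.2 and 62.2 CPM, and Pax6 shows no order.

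Nr2f1 and Nr2f2 were found together. Nr2f2 was at 165 CPM in cells with Nr2f1 and 64.3 CPM in cells without, a ratio of 2.56 (1.9 to 3.49), and Nr2f1 was at 1987 CPM in cells with Nr2f2 and 1039.9 CPM in cells without, a ratio of 1.91 (1.69 to 2.15). Over 5 draws the ratios ran from 2.56 to 3.95 and from 1.87 to 2.01, and this was the 1 pair of 28 whose intervals left out 1 in both orders in every draw. Nr2f2 was at 64.3 CPM (49.2 to 82.5) in cells with 0 Nr2f1 UMIs and 135 CPM (106 to 171) in those with 1. It was at 152 CPM (110 to 205) with 2 and 242 CPM (185 to 311) with 3 or more. The level rose at each step, but the intervals of 1 and 2, and of 2 and 3 or more, overlapped. When all UMIs of a cell were used, the 151 cells with no Nr2f1 UMI held 6 of the 235 Nr2f2 UMIs of the class. Run 1 gave a ratio of 3.71 (2.5 to 5.64) for Nr2f2 by Nr2f1 and run 2 1.3 (0.792 to 2.17), whereas Nr2f1 by Nr2f2 was 1.91 and 1.86 in the 2 runs. The pair was joined in the same way in other populations. Nr2f2 by Nr2f1 was 2.77 (1.81 to 4.34) in the Ccnb1 and Ube2c cluster, 2.96 (1.84 to 4.92) in intermediate progenitor-like, 5.28 (3.86 to 7.3) in ganglionic eminence progenitor-like, 3.58 (2.92 to 4.41) in migrating excitatory neuron-like and 2.41 (1.78 to 3.3) in Lhx6 interneuron-like cells. The part played by reads shared between the paralogs was not tested.

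Sp8 was lower beside Nr2f1. It was at 40.7 CPM in cells with Nr2f1, from 43 UMIs, and 62.2 CPM in cells without, from 59, a ratio of 0.655 (0.432 to 0.987). Over the draws this ran from 0.634 to 0.87, below 1 in every draw with an interval leaving out 1 in 2 of them, and Nr2f1 by Sp8 ran from 0.69 to 0.891. With cells split on 2000 drawn UMIs, which 453 of the cells reach, the ratio was 1.03 (0.614 to 1.79), close to 1. The Ccnb1 and Ube2c cluster gave 0.372 (0.19 to 0.693) and ganglionic eminence progenitor-like cells 0.556 (0.384 to 0.79). Sp8 and Nr2f2 also lay apart in every draw, with Sp8 by Nr2f2 from 0.439 to 0.573, but only 1 radial glia-like cell held both at 1000 UMIs and the interval of Sp8 by Nr2f2 held 1 in all 5.

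**Figure D4:**
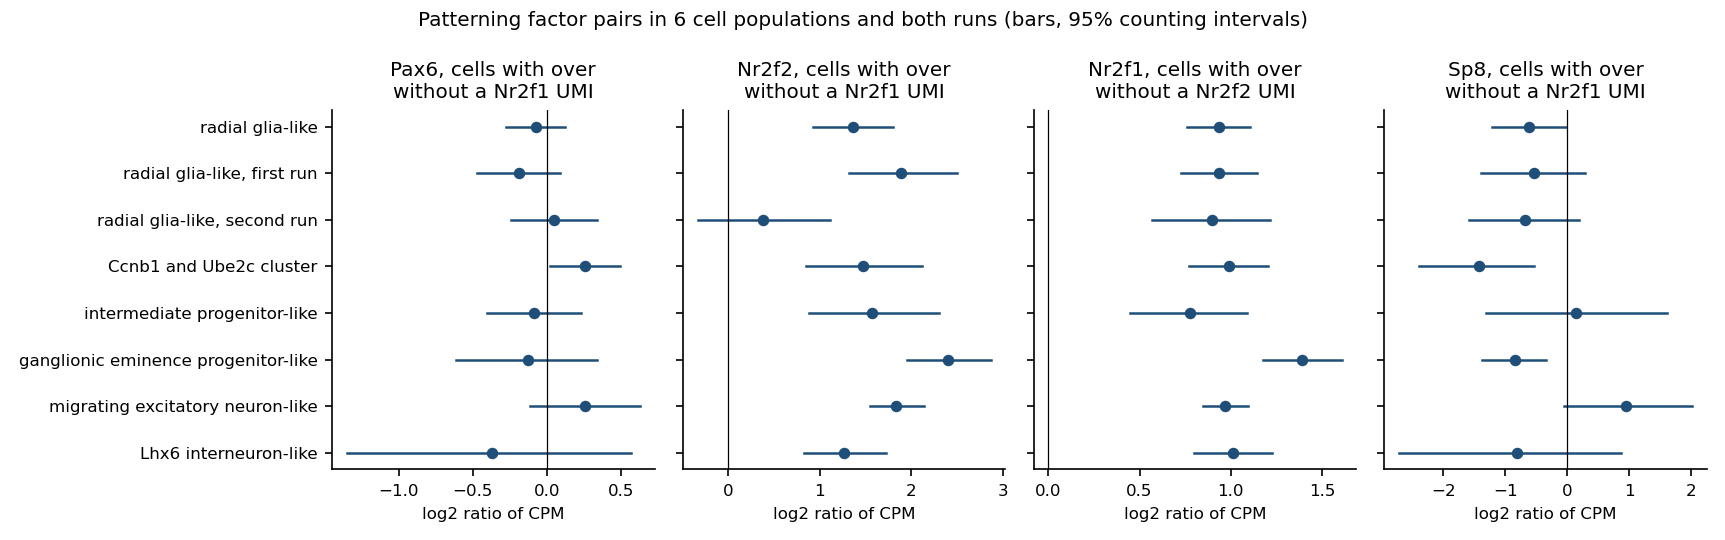
Log2 ratio of CPM of one gene between cells with and without a UMI of another, among 1000 drawn UMIs per cell, in 6 populations and in both runs of radial glia-like cells. Bars are 95% counting intervals; Nr2f1 by Nr2f2 lies right of 0 in every row, Nr2f2 by Nr2f1 too except that the interval of run 2 reaches past 0, and Pax6 by Nr2f1 scatters around 0.

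Lhx2 and Dmrta2 were found together. In the first draw Dmrta2 was at 168 CPM in cells with Lhx2 and 111 CPM in cells without (1.51, 1.18 to 1.94), and Lhx2 by Dmrta2 had a ratio of 1.23 (1.07 to 1.4). Over the draws these ran from 1.3 to 1.59 and from 1.04 to 1.36, with both intervals leaving out 1 in 4 of 5 draws. Emx2 by Dmrta2 ran from 1.1 to 1.53 and Emx2 by Lhx2 from 1.17 to 1.41. In all, 9 of the 28 pairs were together in both orders in every draw: Emx1 with Emx2, Lhx2 and Sp8, Emx2 with Lhx2 and Dmrta2, Lhx2 with Nr2f1, Nr2f2 and Dmrta2, and Nr2f1 with Nr2f2. In 3 pairs the genes were apart: Pax6 with Nr2f2, Nr2f1 with Sp8, and Nr2f2 with Sp8. Not all of the 9 held elsewhere in the first draw. In the Ccnb1 and Ube2c cluster Lhx2 with Nr2f2 was apart, with both intervals leaving out 1. Emx2 with Dmrta2 was apart there too, Emx2 with Lhx2 differed by order, and the rest were together. In run 2 Lhx2 with Nr2f1 was apart, Emx1 with Lhx2 and with Sp8 differed by order, and the rest were together. All 9 were together in run 1. Of the 56 ordered ratios, 22 lay above 1 and 6 below 1 in all 5 draws, and 28 changed side. The draws thinned the same cells and took levels from the same UMIs, so they are not independent repeats. No share over all genes stands beside the counts over draws, so they are a description only. In the first draw 20 of the 56, or 35.7%, had an interval leaving out 1, where the share over 7359 genes was 7.6% for splits by Sp8, 8.59% by Emx2, 8.63% by Dmrta2, 10% by Emx1, 10.3% by Nr2f2, 10.6% by Pax6, 10.8% by Nr2f1 and 11.4% by Lhx2. The 56 are the 28 pairs in both orders. The 8 genes held from 102 (Sp8) to 2242 (Nr2f1) UMIs in these cells, while the 7359 genes needed only 50. Counting intervals narrow as UMIs rise, so these shares do not compare genes of like depth. The interval left out 1 in every draw for 4 of the 56. Correlations of log levels over the 602 cells were weak, with Pearson's r between -0.0891 for Pax6 with Nr2f2 and 0.307 for Nr2f1 with Nr2f2.

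**Figure D5:**
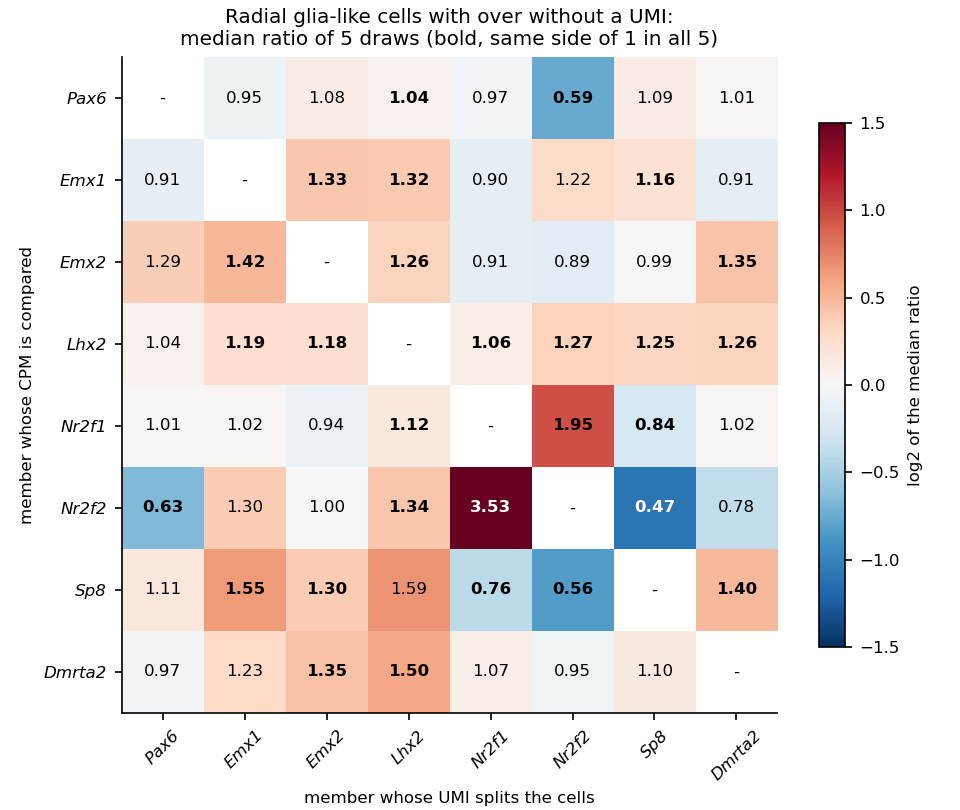
Median ratio over 5 random draws of each gene's CPM (rows) in radial glia-like cells with a UMI of another gene over cells without (columns), coloured on a log2 scale. Bold values lie on the same side of 1 in all 5 draws; the Nr2f1 and Nr2f2 pair holds the 2 highest ratios, 3.53 and 1.95, and Pax6 by Nr2f1 is 0.969.

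Other cell properties moved with these splits, and their part in the ratios was not tested. Cells with an Nr2f2 UMI had more of the 20 G2/M genes, 3611 CPM against 2076 CPM in cells without, more of the 9 ventral forebrain genes, 315 CPM against 189 CPM, and more of the 4 cortical hem markers measured, 199.9 CPM against 75.5 CPM. Cells with an Nr2f1 UMI had less of the ventral genes, 173 CPM against 229 CPM in cells without. Cells with an Lhx2 UMI had less of the ventral genes, 162 CPM against 236 CPM in cells without, less of the 9 ganglionic eminence markers, 135 CPM against 237 CPM, and more of the hem markers, 108 CPM against 63.9 CPM. The 11 striatal neuron markers, also of a ventral class, were higher with Lhx2, at 189 CPM against 138 CPM (1.37, 1.1 to 1.72). In cells with Lhx2, and in those with Nr2f2, 2 of the 4 hem markers had 0 UMIs. Cells with an Emx1 UMI had more of the 10 intermediate progenitor markers, 1936 CPM against 1268 CPM in cells without, more of the 7 migrating neuron markers, 326 CPM against 182 CPM, and less of the 16 radial glia markers, 13940 CPM against 17073 CPM. They also had more of the Adarb2 interneuron markers (1.53, 1.21 to 1.91), the Lhx6 interneuron markers (1.3, 1.08 to 1.56) and the hem markers (1.57, 1.04 to 2.29). Among the 430 radial glia-like cells with no UMI of a ventral gene, Nr2f2 by Nr2f1 was 2.09 and Pax6 by Nr2f2 was 0.515. Among the 102 with no UMI of a G2/M gene, they were 2.07 and 0.387.

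Of the further patterning genes, 17 transcription factors, 5 genes of the FGF arm, 5 of the Wnt and BMP arm and 2 adhesion and guidance genes had enough UMIs for these splits. By Nr2f1, 1 was higher and 1 lower by 1.5-fold, Fgfr3 and Spry2, where 3.6% of 7359 genes were higher and 4.29% lower, so the count is near that of all genes. Values by other splits are given as a description, with no count read from them. Fgfr3, an FGF receptor known for a caudal gradient, was at 356 CPM in radial glia-like cells with Nr2f1 and 189.6 CPM in cells without, a ratio of 1.88 (1.57 to 2.25), and had a ratio of 1.98 (1.55 to 2.51) by Nr2f2. It was higher with Nr2f1 in both runs, at 2.05 and 1.67. Spry2, an FGF-induced inhibitor of that pathway, had ratios of 0.514 (0.311 to 0.833) by Nr2f1, 0.411 (0.239 to 0.685) by Lhx2 and 0.472 (0.249 to 0.839) by Pax6. Sfrp2, a secreted Wnt modulator, had a ratio of 0.512 (0.402 to 0.648) by Lhx2, and the ligand gene Wnt7b a high ratio by Nr2f2 (4.28, 2.77 to 6.46, at 5.11 and 1.48 in the 2 runs).

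The same class comparisons were made for 4 lists of further patterning genes, 51 of 53 in the matrix, given beside the 1.5-fold shares above. In excitatory neuron-like cells 12 of 18 other patterning transcription factors fell below radial glia-like cells and 4 were higher, with a median log2 ratio of -1.79 against -0.13 over all measured genes and -2.77 over the 8. Gli3, the repressor of Shh signalling that defines the dorsal telencephalon, was 38.2-fold (30.7 to 47.9) lower, and Nr2e1, an orphan receptor of neural stem cells, 33.1-fold (25.1 to 44.6) lower. Bhlhe22, a factor of postmitotic neurons needed for area identity, was 16.4-fold (12.7 to 21.6) higher, at 483 CPM in the neurons and 29.4 CPM in radial glia-like cells. Of 9 genes of the FGF arm 7 were lower, Fgfr3 by 16.7-fold (13.4 to 21.05), and of 7 genes of the Wnt and BMP arm 5 were lower, Sfrp2 by 45.5-fold (29.00 to 75.6). The adhesion and guidance genes went the other way, with 5 of 7 higher and 0 lower, Cdh11 by 5.0-fold (3.7 to 6.89).

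In intermediate progenitor-like cells 8 of the 18 factors stood below radial glia-like cells and 1, Bcl11a, was higher (1.68-fold, 1.5 to 1.89). Etv5, an FGF-responsive factor, was 7.47-fold (3.49 to 19.1) lower, as part of 6 of 7 genes of the FGF arm, and 5 of 6 genes of the Wnt and BMP arm were lower too. In ganglionic eminence progenitor-like cells all 6 measured genes of the Wnt and BMP arm stood below radial glia-like cells, Sfrp1 by 3.31-fold (2.96 to 3.71). Among the 18 factors 7 were lower there and 4 higher: Dmrt3, a relative of Dmrta2, was 26.3-fold (7.05 to 221) lower from 2 UMIs against 80, and Meis1, a TALE homeodomain factor, was 3.04-fold (2.24 to 4.16) higher. In Adarb2 interneuron-like cells 8 of 12 measured factors were higher than in Lhx6 interneuron-like cells, Meis2 at 1229 CPM in Adarb2 and 129 CPM in Lhx6 interneuron-like cells. In upper layer neuron-like cells 5 of 13 factors were lower and 1 higher than in deep layer neuron-like cells, and 5 of 6 genes of the Wnt and BMP arm were lower, Wnt7b by 2.7-fold (2.31 to 3.18).

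The genes whose levels were most like each member were sought over the 26 clusters, among 9708 genes with at least 200 UMIs, by Pearson's r of log2(CPM + 10). The clusters share one pool of libraries and differ in depth, so r is a description. Pax6 was nearest to Id4 (r = 0.851), Sox9 (0.840) and Sox3 (0.836), and Emx1 to Neurog2 (0.872), Vangl2 (0.850) and Hs3st1 (0.849). Lhx2 was nearest to Rlbp1 (0.871), Celsr1 (0.837) and Emx1 (0.835), and Emx2 to E330013P04Rik (0.805), Dmrta2 (0.793) and Hmgn3 (0.789), so 2 of the 8 had another of the 8 among their nearest 3. Dmrta2 was nearest to E130114P18Rik (0.866), Sfxn5 (0.847) and Echdc2 (0.842), Nr2f1 to Sap30 (0.872), U2af1 (0.843) and Riok2 (0.836), and Sp8 to Slc18a2 (0.850), Meis1 (0.842) and Nudt4 (0.796). Nr2f2 had no gene as near, with 0.615 for Tshz1, 0.576 for Slc2a13 and 0.576 for Rcan2.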

How the data were processed

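Droplet single-cell RNA sequencing (SureCell) of mouse forebrain was read from the count matrix the authors deposited, whose values are raw UMI counts per gene and cell; the gene and cell files hold names. Per the submitters' processing notes the build was mm10. The aligner, counting tool, strand setting and annotation were not stated in the labels or headers. Samples could not be told apart in the matrix, so all cells were 1 sample, no test was possible and p-values were not computed.

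Cells with over 10% globin UMIs (4) were set apart and no other filter was applied. The remaining cells were scaled to 10000 UMIs, and 2000 variable genes, without the 8 genes, the 4 patterning lists and their partners, gave 30 principal components, 15 neighbours and Leiden clusters at resolution 1 (scanpy 1.11.5, leidenalg 0.10.2, scikit-learn 1.9.0, numpy 2.4.6, scipy 1.17.1, pandas 2.3.3). Clusters were named from 185 markers of 22 classes, of which 171 are in the matrix. Doublets were kept, and removing the 5% of cells with the highest Scrublet scores was an alternative. The members, lists and rules were chosen with earlier results of these data known.

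Levels are UMIs summed over the cells of a class and scaled to its total (CPM), with exact 95% Poisson intervals; ratios have exact conditional binomial intervals and shares exact Clopper-Pearson intervals. PCR and sampling of cells add error that these do not cover. A gene was called at 1.5-fold among genes reaching 50 UMIs across the classes compared; the floor for 0 is 3 counts. For splits within radial glia-like cells, 1000 UMIs were drawn per cell to decide which cells had a UMI, and levels used all UMIs. The splitting gene itself was not compared. Named beside the 8 genes were, per list and comparison, the 2 genes of largest ratio in each direction past 1.5-fold, of which the text gives some, and the 3 genes most like each member. The splits used the same rule. The ratio intervals were tested on independent Poisson counts simulated with known folds, without spread between cells. Clustering, class naming and the splits within radial glia-like cells were not simulated.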

Additional observations from a re-analysis of the deposited data

How the results depend on the processing

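No paired analysis was possible because there is 1 group and cells carry no sample label. Of 24 alternatives, 17 were planned and 7 were chosen after seeing the data: naming every cluster by its best class, joining the mitotic cluster to radial glia-like cells, leaving out clusters under 20 cells, and 4 other random draws. Of 1829 values under them 28 reversed direction, and 27 of 35 class ratios of the 8 genes kept 1 direction throughout. The cause of each change below was not tested. The count of the 8 genes called was 5 rather than 3 for intermediate progenitor-like over radial glia-like cells at resolution 0.5; for upper over deep layer neuron-like cells it was 5 with 15 principal components, 1 with equal weight per cell, 4 at 10 UMIs and 0 at 2-fold, rather than 2. Values that follow are log2 ratios. Intermediate progenitor-like over radial glia-like cells reversed for Emx2 in the second run (0.053), Nr2f2 with the genes allowed as features (0.38) or best-class names (0.22), and Dmrta2 with the genes allowed as features (-0.12). Nr2f2 in excitatory neuron-like over radial glia-like cells reversed with best-class names (0.63), and Nr2f1 in Adarb2 over Lhx6 interneuron-like cells with clusters from 50% of UMIs (-0.31). Within radial glia-like cells, Pax6 by Nr2f1 moved to 0.17 with clusters from 50% of UMIs, 0.16 in another draw and -0.28 without G2/M UMIs. Nr2f2 by Nr2f1 moved to 1.89 and 0.38 in the first and second run, 4.05 at 2000 UMIs, 3.19 on all UMIs, and 1.89, 1.98 and 1.82 in other draws. Lhx2 by Nr2f1 moved to 0.37 and -0.19 in the runs, 0.25 on all UMIs and 0.52 without G2/M UMIs, and Emx2 by Pax6 to -0.064 in another draw and 1.46 without G2/M UMIs. At resolution 0.5, reversals were Pax6 by Emx2 (-0.11), Lhx2 by Emx2 (-0.027), Dmrta2 by Emx2 (-0.22) and Sp8 by Lhx2 (-0.048). With clusters from 50% of UMIs, Sp8 by Lhx2 (-0.24) and Lhx2 by Nr2f2 (-0.10) reversed. By run, Nr2f1 by Lhx2 reversed in the second (-0.065) and Sp8 by Lhx2 in the first (-0.19). Sp8 by Nr2f1 reversed at 2000 UMIs (0.038). In other draws Pax6 by Emx2 (-0.081), Sp8 by Lhx2 (-0.11), Emx2 by Nr2f2 (0.45 and 0.035) and Emx2 by Sp8 (-0.25, -0.030 and -0.0081) reversed. Among the 102 cells without G2/M UMIs, Emx1 by Emx2 (-0.32), Nr2f2 by Lhx2 (-0.20), Emx2 by Nr2f2 (0.12), Lhx2 by Nr2f2 (-0.023), Nr2f2 by Sp8 (1.31) and Emx2 by Dmrta2 (-0.20) reversed. Depth limits the splits: Sp8 and Nr2f2 had 102 and 235 UMIs in radial glia-like cells.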
